A study of Homo sapiens with 4 samples.

Results

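The genes described here are those that the arrays name GPR followed by a number, the working names that were given to G protein-coupled receptors before their ligands were known. They were chosen by symbol, with earlier results of these data known. The arrays carried 105 such symbols on 128 probes, out of 20389 gene symbols in all. Of the 105 symbols, 61 are still current in RefSeq, 43 are now synonyms of 1 current symbol, and *GPR89* matches several. The samples were LN229 cells, an established human glioblastoma line, either transfected with siRNA against *SOX2* (*SOX2* knockdown) or with a control siRNA that has no target (mock), with 2 arrays per group. The study's methods describe the replicates as separate transfections. Each p-value thus sets the change against the spread between these 4 RNA samples of 1 cell line after a transient knockdown. In limma that spread is drawn toward the spread common to all features kept. Which of the *SOX2* siRNAs was on which array is not given in the sources used here.

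G protein-coupled receptors cross the cell membrane several times, bind a ligand outside the cell and switch on a heterotrimeric G protein inside it. The alpha subunit then acts on effectors such as adenylyl cyclase, RGS proteins shorten the signal by speeding the hydrolysis of GTP, and receptor kinases with arrestins silence the receptor. Many GPR symbols have since been given a ligand or a new name, among them receptors for peptides, lipids and metabolites and the adhesion receptors, which carry long extracellular regions that bind matrix and other cells. Some others turned out to be transporters or proteins of intracellular membranes. In the brain, members of the family act in neural progenitors, astrocytes and myelinating glia.

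Among the genes described below, *GPR1* and *GPR85* passed a 2-fold cutoff and had a promoter in the RefSeq table used here. They are printed because *SOX2* was the gene knocked down and SOX proteins of this class recognize a short A and T rich core. Each window holds 300 bases around a start of transcription (RefSeq, build GRCh38.p14), and the capitals mark the core ACAAT on the strand of the gene. The window of *GPR1* (chr2:206213322-206213621, minus strand) holds the core at position +33. The first window of *GPR85* (chr7:113087675-113087974, minus strand) holds it at position -56, and its second window holds none.

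GPR1: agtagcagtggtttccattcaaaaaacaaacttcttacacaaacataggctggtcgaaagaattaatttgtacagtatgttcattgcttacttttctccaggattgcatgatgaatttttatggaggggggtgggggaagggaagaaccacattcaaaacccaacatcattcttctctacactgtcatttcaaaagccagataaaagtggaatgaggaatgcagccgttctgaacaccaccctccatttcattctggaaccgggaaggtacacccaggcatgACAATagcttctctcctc

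GPR85: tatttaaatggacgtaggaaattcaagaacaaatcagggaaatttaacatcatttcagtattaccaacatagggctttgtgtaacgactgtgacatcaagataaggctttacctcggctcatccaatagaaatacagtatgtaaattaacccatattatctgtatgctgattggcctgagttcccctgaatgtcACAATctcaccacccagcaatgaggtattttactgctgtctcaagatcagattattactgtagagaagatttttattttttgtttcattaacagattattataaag

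The core ACAAT, or its reverse complement ATTGT, stood in 27.4% of 35116 RefSeq promoter windows of this length. It stood in 20 of the 93 windows of the 73 GPR genes found in the table (21.5%), and in 10 of the 61 windows of GPR genes with a signal above background (16.4%). The longer form AACAATG (reverse complement CATTGTT), which contains the core, stood in 3.33% of all windows and in 1 of the 93. A match is a description of the letters only. The GC content was 42.3% for *GPR1* and 34.3% for the first window of *GPR85*, against a median of 64.3% for the windows of GPR genes above background and 58.7% for all windows.

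*SOX2* itself, the target, gave signals of 0.454 and 0.682 in mock, replicates 1 and 2 in this order, and of 0.204 and 0.145 after knockdown, in units of the 75th percentile of the array, as are all signals below. The ratio of the means was 0.308 and the log2 change was -1.69 (SE 0.28, limma adjusted p = 0.114). Both knockdown arrays were thus below both mock arrays. In total RNA of a whole culture, fewer cells with a transcript and less of it per cell cannot be told apart. Between 63.5% and 68.9% of the probes of an array exceeded 3 in S/N, the signal divided by its error. SW620, a line from colon cancer, appears in the treatment protocol of the labels, whereas their title, description and characteristics have LN229. The source name gives no line. Of 8 glial and neural progenitor markers 7 were above background. The summed signal of the 8 was 116 to 135 on the mock arrays and 101 to 112 on the knockdown arrays. Most of this sum came from *VIM* (49.8 to 58.1) and *S100B* (24.7 to 40.3). *SOX9* was at background and *GFAP* gave 0.0997 to 0.164. Of 9 colon epithelium markers 4 were above background, and their sum (14.1 to 49.5 on mock, 22.2 to 47.0 on knockdown) was nearly all *CDH1*. The others of the 4 were *VIL1* at 0.0368 to 0.0490, *CDX2* at 0.0130 to 0.0283 and *LGALS4* at 0.0304 to 0.0642, and *KRT20* and *CDH17* were not above background. Their part in the results below was not tested.

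A gene was called above background when both arrays of 1 group or of both had an S/N above 3. This held for 63 of the 105 GPR genes (60.0%), against 73.8% of all 20389 symbols. Of the 63, 50 had S/N over 3 on all 4 arrays, 11 on 3 arrays, and 2, *GPR1* among them, on 2. The other 42 genes were not well above background, 33 of them on no array and 9 on 1 or 2 arrays. The genes nearest to the limit were *GPR39*, whose better group had an S/N of 3.02 on its lower array, and *GPR160* with 3.08 on the inside, and *GPR84* with 2.80 and *GPR3* with 2.66 on the outside. By role, 13 of 16 adhesion receptors were above background, 13 of 17 peptide and protein receptors, 7 of 8 proteins that are not classical receptors, 19 of 32 class A orphan receptors, 11 of 29 receptors for lipids, nucleotides and metabolites, and none of the 3 class C receptors (*GPR51* and *GPR158* among them).

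The genes not above background included, among adhesion receptors, *GPR64*, *GPR115* and *GPR128*, and among peptide and protein receptors *GPR83*, *GPR145* and *GPR147*. Among receptors for lipids, nucleotides and metabolites they included the fatty acid receptors *GPR41*, *GPR42*, *GPR43* and *GPR84*, the hydroxycarboxylic acid receptors *GPR81*, *GPR109A* and *GPR109B*, the lysophospholipid receptors *GPR23*, *GPR34* and *GPR174*, the proton sensors *GPR65* and *GPR132*, and *GPR3*, *GPR17*, *GPR32*, *GPR44* and *GPR55*. *GPR41* and *GPR42* share 1 probe, and *GPR109A* and *GPR109B* share 1 gene ID. Each pair therefore has 1 set of values, counted once per symbol. *GPR17* is a marker of oligodendrocyte precursors, and its S/N passed 3 on 1 array of each group. The class A orphans *GPR21*, *GPR22*, *GPR26*, *GPR50*, *GPR52*, *GPR61*, *GPR63*, *GPR82*, *GPR101*, *GPR141*, *GPR153* and *GPR171* and the melanosome protein *GPR143* were not above background either.

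**Figure D1:**
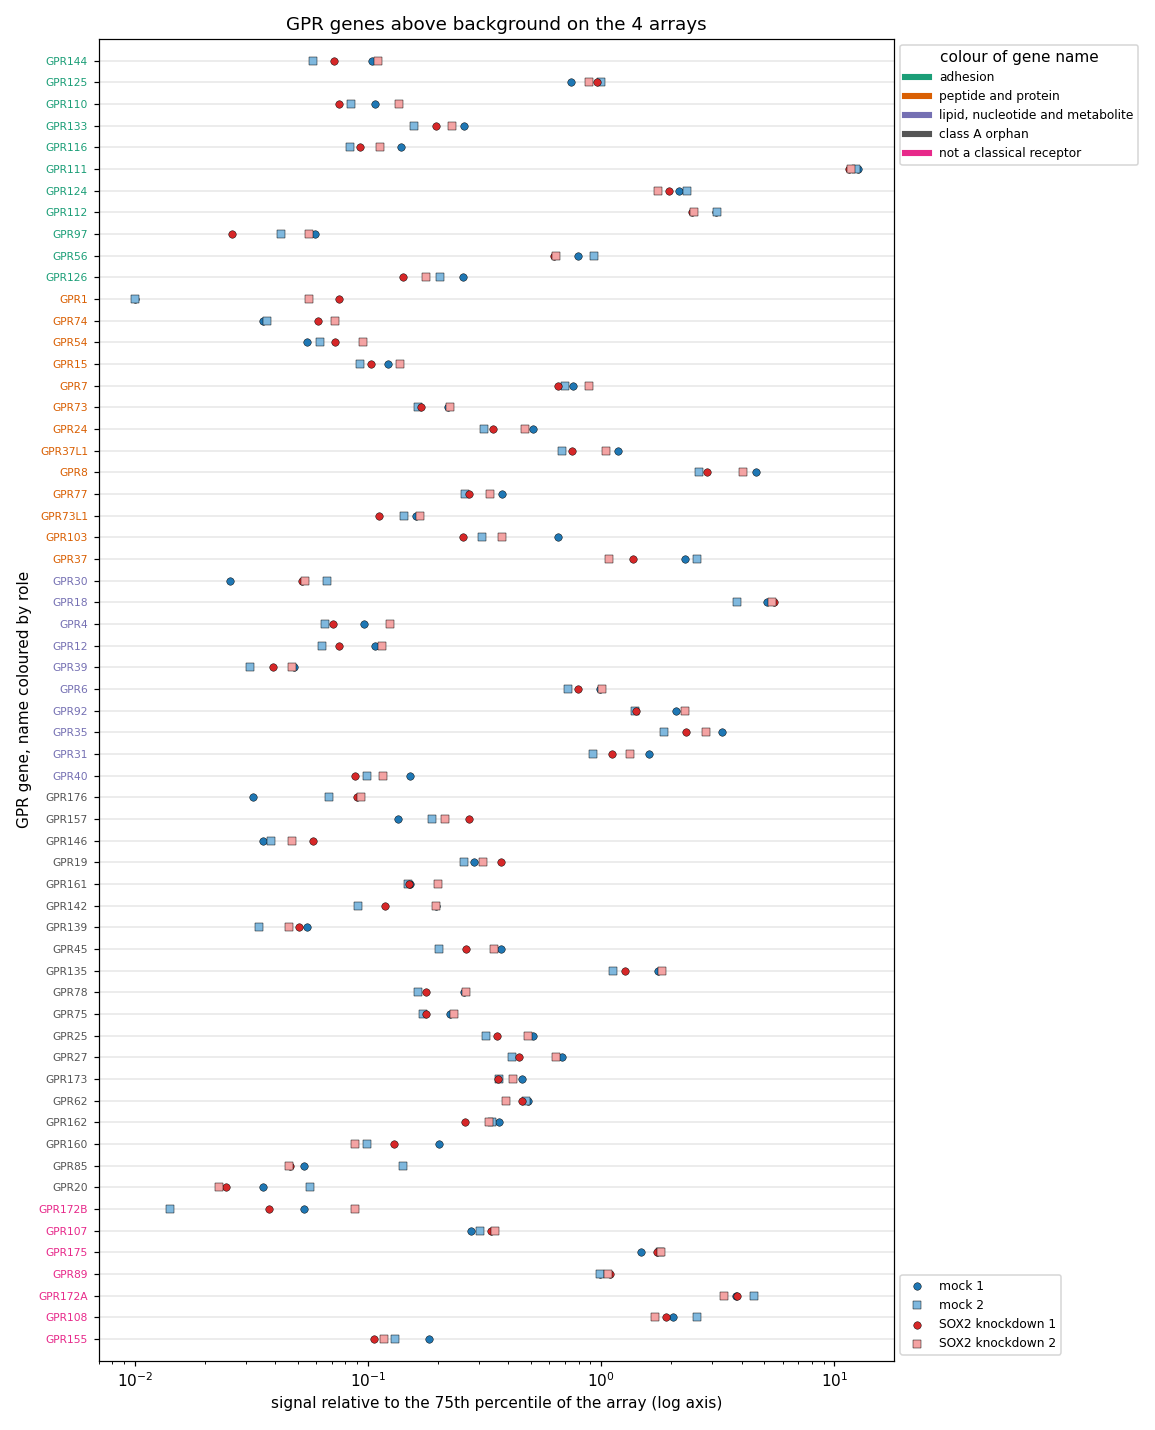
Signal of 60 of the 63 GPR genes above background on each of the 4 arrays, relative to the 75th percentile of the array on a log axis. Circles are replicate 1 and squares replicate 2, blue for mock and red for SOX2 knockdown, with gene names coloured by role and ordered by log2 change within a role. In 38 of the 60 genes the red and blue points overlap, and GPR1 lies at the floor of 0.01 on both mock arrays.

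Few GPR genes differed between the groups by much. Of the 63, 35 had a higher mean after *SOX2* knockdown and 28 a lower one. The median log2 change was 0.04, against 0.00 for all 18378 features kept, and the median size of the change was 0.18 against 0.19. By the 2-fold cutoff on replicate means that the study used, without a test, 1 gene was higher (*GPR1*) and 2 were lower (*GPR85* among them), which is 4.76% of the 63 against 2.38% of all features. Of all features 1.47% were higher and 0.909% lower by this cutoff. At 1.5-fold 5 were higher and 5 lower (15.9% against 9.86%, of which 5.08% were higher and 4.78% lower), and 39 were within 1.2-fold (61.9% against 64.3%).

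The arrays of the groups did not overlap for 23 of the 63 genes (36.5%), 10 higher and 13 lower, whereas this held for 47.2% of all features (21.6% higher and 25.7% lower). With limma and Benjamini-Hochberg adjustment over all features, no GPR gene passed an adjusted p of 0.05, nor did any other feature (0.0%). At an adjusted p of 0.1 *GPR1* alone passed, against 0.903% of all features (0.626% higher and 0.278% lower). This count ranged from 0 to 8 GPR genes under other settings. An unadjusted p under 0.05 was reached by 10 genes, 4 of them higher (15.9% against 17.2% of all features). Among the 10 were *GPR1*, *GPR37*, *GPR54*, *GPR74*, *GPR20*, *GPR146*, *GPR56*, *GPR112* and *GPR126*. Of these, *GPR1*, *GPR54* and *GPR146* passed the background filter through the knockdown arrays only, and *GPR20* through the mock arrays only. In each case that was the group with the higher mean, so the filter favoured the direction seen.

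**Figure D2:**
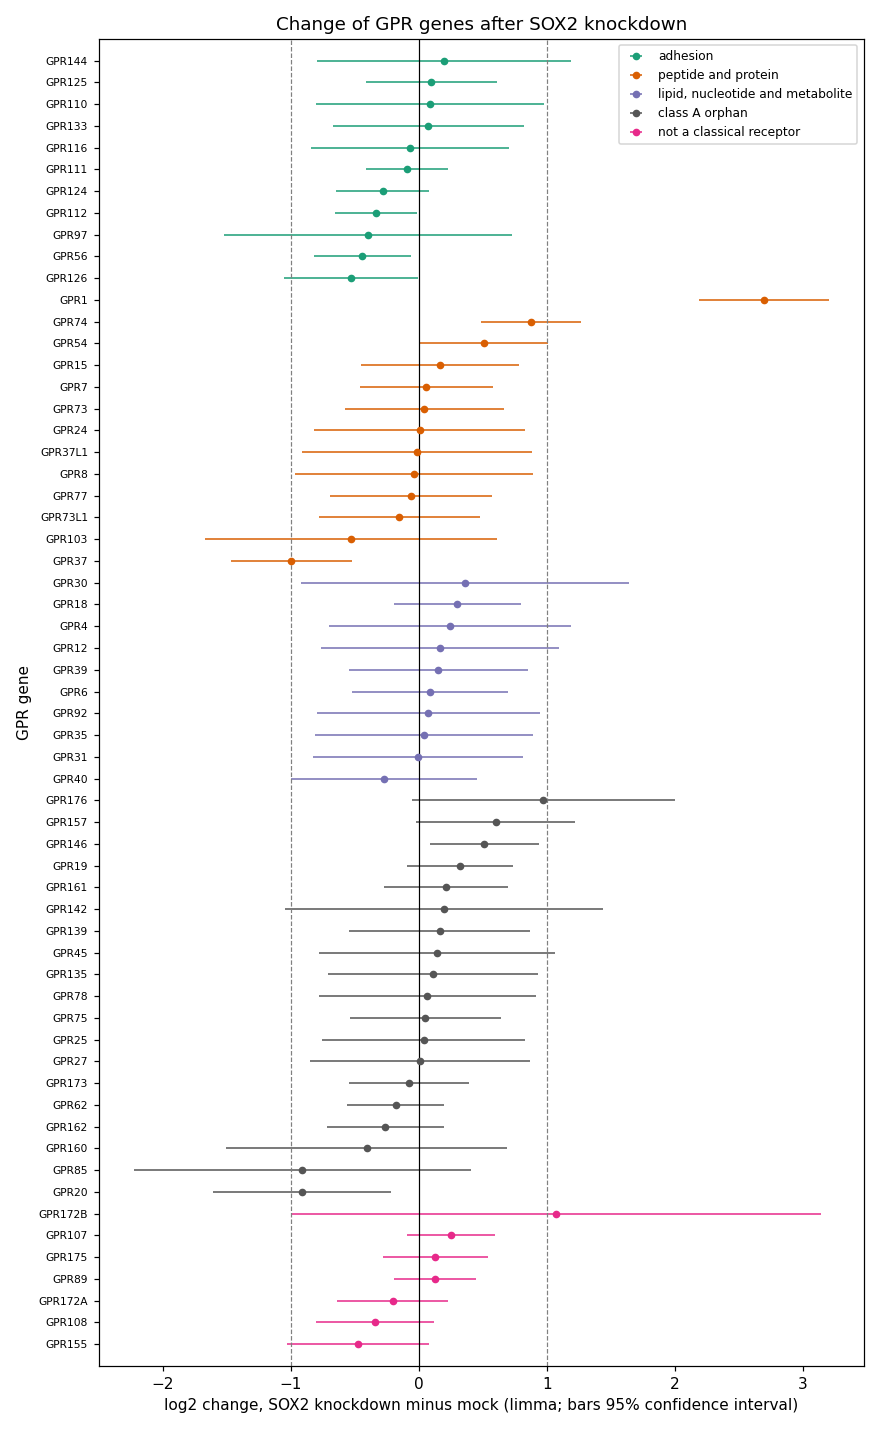
The log2 change of 60 of the 63 genes from mock to SOX2 knockdown, with its 95% confidence interval from limma (2 arrays per group), grouped and coloured by role. Dashed lines mark 2-fold. GPR1 is plotted at 2.69 with both mock values at the floor of 0.01, and 51 of the 60 intervals include 0.

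Among the peptide and protein receptors, *GPR1* (now *CMKLR2*), a receptor for the adipokine chemerin, was at or under the floor of 0.01 on both mock arrays, with S/N of -0.27 and -1.95. After *SOX2* knockdown its signal was 0.0753 and 0.0556, with S/N of 9.88 and 4.28. It was thus measured on both knockdown arrays and on no mock array, a pattern that 1.13% of all features showed. Set against the signal that would have reached an S/N of 3 on the mock arrays, it was at least 2.61-fold higher. This bound holds on the main scale only and takes the knockdown signals as exact. With both mock values at the floor the log2 change was 2.69 (SE 0.19, limma adjusted p = 0.0700), and its size, SE and adjusted p depend on that floor. With a floor of 0.05 the log2 change was 0.37, and with another background correction (normexp) it was 0.94. *GPR1*, *GPR37* and *GPR172B* are genes that the study singled out on these arrays, so their direction here is not independent evidence.

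*GPR37*, the parkin-associated receptor for which prosaposin has been proposed as a ligand, had the lowest log2 change of the peptide and protein receptors. Its signal was 2.29 and 2.57 in mock and 1.37 and 1.08 after knockdown. The groups did not overlap, and the means were 2.43 ± 0.200 and 1.23 ± 0.205 (SD, n = 2). The ratio was 0.505, just short of the cutoff, and the log2 change was -0.99 (SE 0.18, limma adjusted p = 0.121). It stayed lower when any 1 array was left out, between -1.17 and -0.82. It passed 2-fold with median scaling, in the series table and with normexp, where its log2 change was -1.03, -1.02 and -1.07.

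*GPR37L1*, its close relative in astrocytes, differed mainly between replicates. Its signal was 1.18 and 0.682 in mock and 0.748 and 1.05 in knockdown, so that the groups overlapped (log2 change -0.02, SE 0.34). The difference between the changes of the 2 relatives was not tested.

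*GPR74* (*NPFFR2*), a receptor for neuropeptide FF, was low on every array and had replicates close to each other. Its signal was 0.0353 and 0.0368 in mock and 0.0608 and 0.0719 in knockdown. Both knockdown arrays were higher, by a ratio of 1.84 (log2 change 0.88, SE 0.15, limma adjusted p = 0.113). With a floor of 0.05 the log2 change was 0.40, and with normexp it was 0.44. *GPR54* (*KISS1R*), the kisspeptin receptor that starts puberty, was also higher on both arrays, with a ratio of 1.43 (limma adjusted p = 0.289). Its mock replicate 1 was not well above background (S/N 2.11).

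*GPR103* (*QRFPR*), a receptor for an RFamide peptide that raises appetite, gave 0.650 and 0.308 in mock and 0.256 and 0.375 in knockdown. The high value of mock replicate 1 set the difference, since the log2 change was -0.53 (SE 0.42) with it and 0.01 without it. Its 3 probes gave ratios of 0.584, 1.02 and 1.205, the last at background. *GPR8* (*NPBWR2*), a neuropeptide B and W receptor, gave 4.64 and 2.62 in mock and 2.85 and 4.05 in knockdown. Its groups overlapped, with a ratio of 0.951. The remaining members, with ratios from 0.917 to 1.12 and overlapping groups, were *GPR7* (*NPBWR1*), the other receptor of that pair, *GPR24* (*MCHR1*) for melanin-concentrating hormone, the prokineticin receptors *GPR73* and *GPR73L1*, the C5a receptor *GPR77* and the lymphocyte homing receptor *GPR15*. Most of the signal of the gene ID used for *GPR73* comes from a probe annotated to *C2orf13* alone. The probe annotated to both genes gave a ratio of 1.10, and the probe of *GPR73* alone, under another gene ID, exceeded an S/N of 3 on 1 array.

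Of the 13 adhesion receptors, 3 reached an unadjusted p under 0.05, all with a lower mean, against 17.2% of all features in either direction, and none passed 2-fold. *GPR56* (*ADGRG1*), which binds collagen III and transglutaminase 2 and acts in neural progenitors, gave 0.793 and 0.931 in mock and 0.628 and 0.637 in knockdown. The groups did not overlap, with a ratio of 0.734 (log2 change -0.44, SE 0.14, limma adjusted p = 0.241). *GPR126* (*ADGRG6*), a collagen IV receptor needed by Schwann cells for myelination, gave 0.256 and 0.204 in mock and 0.141 and 0.178 in knockdown. Its groups did not overlap either, with a ratio of 0.693 (log2 change -0.53, SE 0.20, limma adjusted p = 0.288). All 3 of its probes were lower, with ratios of 0.671, 0.930 and 0.561.

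*GPR112* (*ADGRG4*), an adhesion receptor of the gut, gave 3.11 and 3.14 in mock and 2.45 and 2.51 in knockdown, a ratio of 0.794. Its signal came from 1 of 3 probes, the others being at background, and a probe under a second gene ID gave a ratio of 1.003. *GPR111*, now listed as the pseudogene *ADGRF2P*, gave 12.6 and 12.3 in mock and 11.6 and 11.8 in knockdown, a ratio of 0.938. A second *GPR111* probe was at background on all 4 arrays, so the bright signal rests on 1 probe. *GPR124* (*ADGRA2*), which works with *RECK* as a Wnt7 coactivator in brain vessels, had a ratio of 0.824 with no overlap.

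*GPR97* (*ADGRG3*), a receptor of granulocytes, gave 0.0594 and 0.0424 in mock and 0.0260 and 0.0556 in knockdown, and its replicates differed by over 2-fold after knockdown. *GPR110* (*ADGRF1*), a receptor of neurons for synaptamide, gave 0.107 and 0.0842 in mock and 0.0753 and 0.136 in knockdown. Its 2 probes differed in direction, with ratios of 0.954 and 1.39. *GPR133* (*ADGRD1*), which has been described in glioblastoma, had a ratio of 1.02, and *GPR116*, *GPR125* and *GPR144* had ratios from 0.927 to 1.13 with overlapping groups. The gene ID of *GPR125* also holds a probe of *CDC2L1* and *CDC2L2*. The probe of *GPR125* alone gave a ratio of 1.16.

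Among the receptors for lipids and metabolites, *GPR18*, a receptor for N-arachidonoyl glycine, gave 5.13 and 3.82 in mock and 5.49 and 5.42 in knockdown, higher on both knockdown arrays by a ratio of 1.22 (log2 change 0.30, SE 0.19). The log2 change was 0.088 without mock replicate 2 and 0.51 without mock replicate 1. Another *GPR18* probe was at background. *GPR30* (*GPER1*), the membrane estrogen receptor, gave 0.0257 and 0.0665 in mock and 0.0521 and 0.0539 in knockdown. Its knockdown values lay between the mock values. The constitutively active receptors *GPR6* and *GPR12*, the proton sensor *GPR4*, the zinc sensor *GPR39*, the lysophosphatidic acid receptor *GPR92* (*LPAR5*), the fatty acid receptor *GPR40* (*FFAR1*) and *GPR31* and *GPR35* had ratios from 0.818 to 1.21, all with overlapping groups.

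Of the class A orphan receptors, *GPR85* was past 2-fold. *GPR85* belongs to a small family of highly conserved brain receptors with *GPR27* and *GPR173*. Its signal was 0.0530 and 0.141 in mock and 0.0463 and 0.0458 in knockdown. The S/N was 3.84 and 3.13 in mock and 4.03 and 4.31 in knockdown, near the limit of 3 on every array. The mock arrays differed from each other by more than mock replicate 1 differed from the knockdown arrays. The ratio was 0.474 and the log2 change -0.91 (SE 0.49, limma adjusted p = 0.450), and it was -0.20 without mock replicate 2 and -1.62 without mock replicate 1. *GPR27* and *GPR173* had ratios of 0.992 and 0.945 with overlapping groups.

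*GPR20*, a receptor of gastrointestinal stromal cells, gave 0.0353 and 0.0566 in mock and 0.0246 and 0.0229 in knockdown. Both knockdown arrays were lower, with a ratio of 0.517 (log2 change -0.91, SE 0.26, limma adjusted p = 0.208). Knockdown replicate 2 was not well above background (S/N 1.35). The values are near the lower end of the scale, and a floor of 0.05 left a log2 change of -0.09, and normexp one of -0.081. It was -0.57 without mock replicate 2. *GPR160* gave 0.202 and 0.0990 in mock and 0.129 and 0.0882 in knockdown, with overlapping groups.

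*GPR176*, a receptor of the circadian clock centre of the brain, gave 0.0321 and 0.0679 in mock and 0.0897 and 0.0931 in knockdown. It was higher on both knockdown arrays, with a ratio of 1.83 (log2 change 0.97, SE 0.38, limma adjusted p = 0.314), but the background correction with normexp gave -0.14. Without mock replicate 1 the log2 change was 0.43, and without mock replicate 2 it was 1.51. *GPR157* gave 0.135 and 0.188 in mock and 0.272 and 0.214 in knockdown, a ratio of 1.51 (limma adjusted p = 0.305). Its mock replicate 1 was not well above background (S/N 2.18). With normexp its log2 change was 0.08 in place of 0.60, and without mock replicate 1 it was 0.36. Its second gene ID gave a ratio of 1.29.

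*GPR146* and *GPR19* were higher on both knockdown arrays as well, with ratios of 1.43 and 1.25 (limma adjusted p = 0.229 and 0.401). Mock replicate 2 of *GPR146* was not well above background (S/N 2.41). *GPR142* gave 0.196 and 0.0905 in mock and 0.119 and 0.196 in knockdown, and its groups overlapped. *GPR162* and *GPR62* were lower on both, with ratios of 0.840 and 0.884. *GPR161*, the ciliary receptor that restrains Hedgehog signalling, had a ratio of 1.17, and *GPR25*, *GPR45*, *GPR75*, *GPR78*, *GPR135* and *GPR139* had ratios from 1.010 to 1.09, all with overlapping groups.

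Of the proteins that are not classical receptors, none passed 2-fold. *GPR172B* (*SLC52A1*), a riboflavin transporter, gave 0.0530 and 0.0141 in mock and 0.0376 and 0.0882 in knockdown. The groups overlapped, and mock replicate 2 was not well above background (S/N 1.19). The ratio was 1.88 and the log2 change 1.07 (SE 0.77, limma adjusted p = 0.585), which became 0.12 without mock replicate 2 and 2.03 without mock replicate 1. It was 0.46 without *SOX2* knockdown replicate 2 and 1.69 without replicate 1. *GPR172A* (*SLC52A2*), the related transporter, gave 3.77 and 4.54 in mock and 3.82 and 3.37 in knockdown, a ratio of 0.865 with overlapping groups.

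*GPR107*, a Golgi membrane protein, gave 0.277 and 0.303 in mock and 0.336 and 0.352 in knockdown, a ratio of 1.19. Its 3 probes did not move alike. A probe with S/N over 3 on all 4 arrays gave a ratio of 1.93, the brightest gave 0.959, and the third, measured on 1 array, gave 1.36. Its relative *GPR108* and the lysosomal cholesterol sensor *GPR155* were lower on both knockdown arrays, with ratios of 0.784 and 0.711. The value of *GPR155* averages 3 probes, of which only the brightest was above background. That probe alone gave 0.396 and 0.279 in mock and 0.198 and 0.284 in knockdown, so its groups overlapped (ratio 0.715). The Golgi pH regulator *GPR89* had a ratio of 1.09 with no overlap, and *GPR175* (*TPRA1*) one of 1.09 with overlap.

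The replicates of GPR genes were farther apart than those of other features. The median fold between replicates was 1.40 in mock and 1.27 in knockdown, against 1.16 and 1.12 for all features kept. In mock 7 genes differed by over 2-fold between replicates (11.1% against 3.46%), namely *GPR172B*, *GPR85*, *GPR103*, *GPR176*, *GPR30*, *GPR142* and *GPR160*, and after knockdown 2 did (3.17% against 1.63%), *GPR172B* and *GPR97*. GPR probes were also dimmer, with a median signal of 0.216 against 0.580 and with 25.4% of the 63 under 0.1 against 14.4%.

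These deviations went the same way in most of the genes. Mock replicate 1 was above the gene's own mean over the 4 arrays in 48 of the 63 and *SOX2* knockdown replicate 2 in 47, whereas mock replicate 2 and *SOX2* knockdown replicate 1 were above it in 17 each. The median log2 deviations were 0.19 and 0.16 on the first pair and -0.22 and -0.17 on the second. Over all features kept they were 0.03, 0.02, -0.00 and -0.03, and over the 8582 features with a mean signal under 0.5 they were 0.09, 0.11, -0.09 and -0.08, in the same order. Each group had 1 array of either kind (the plot of deviations by array). The source of this shift was not tested.

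**Figure D3:**
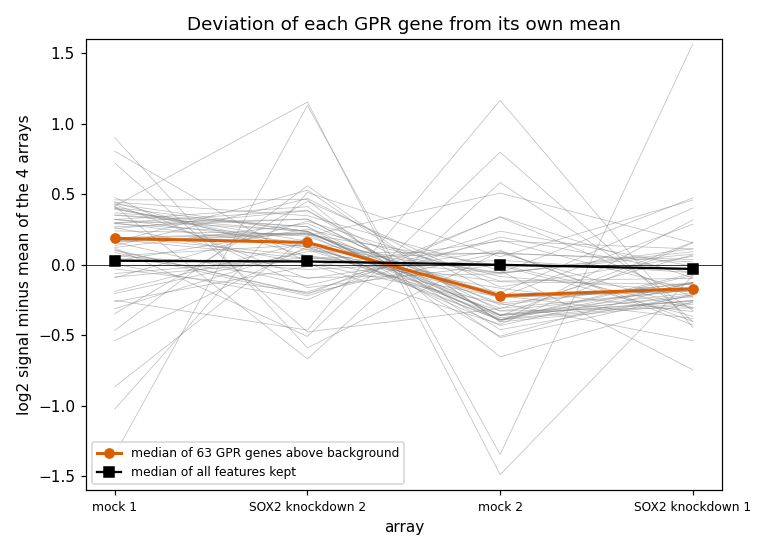
Deviation of each GPR gene above background from its own mean over the 4 arrays, on the log2 scale (thin lines), with the median of the 63 genes in orange and of all features kept in black. Arrays are ordered so that those with a like deviation stand together. The orange median lies at 0.19 and 0.16 on the left and at -0.22 and -0.17 on the right, and the black one stays within 0.03 of 0.

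The genes that receptors signal through were read from lists chosen by function, with earlier results of these data known. Of 15 G protein alpha subunits on the arrays 11 were above background, and none passed 2-fold or an adjusted p of 0.1 (median log2 change -0.05). Of 18 beta and gamma subunits 15 were above background (median -0.07), 12 with a lower and 3 with a higher mean. The median log2 change of all features kept was 0.00. *GNG7* alone passed 2-fold or an adjusted p of 0.1. Of all features 0.909% were lower by 2-fold, and 0.278% were lower at an adjusted p of 0.1. *GNG7*, a gamma subunit of the striatum, gave 5.23 and 5.55 in mock and 1.91 and 1.83 in knockdown. Its arrays did not overlap, with a ratio of 0.347 (log2 change -1.53, SE 0.12, limma adjusted p = 0.0701).

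Of 20 RGS proteins 15 were above background (median log2 change 0.13), 8 with a higher and 7 with a lower mean. In each direction 1 passed 2-fold, against 1.47% of all features higher and 0.909% lower. *RGS4*, an inhibitor of Gi and Gq signalling that is abundant in brain, gave 0.822 and 0.744 in mock and 0.359 and 0.345 in knockdown (ratio 0.449, log2 change -1.15, SE 0.13, limma adjusted p = 0.0879). *RGS7*, which pairs with the beta subunit *GNB5*, gave 0.0963 and 0.102 in mock and 0.276 and 0.240 in knockdown (ratio 2.60, log2 change 1.38, SE 0.14, limma adjusted p = 0.0833). In both genes the groups stood apart. *GNB5*, looked at after its value was seen, had a ratio of 0.908.

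Of 11 receptor kinases and arrestins 7 were above background (median log2 change -0.20), and of 10 adenylyl cyclases 6 (median -0.22). None of these passed 2-fold or an adjusted p of 0.1. Of 12 cAMP phosphodiesterases 8 were above background (median 0.01), and 1 was lower by 2-fold on its measured means (0.909% of all features). This was *PDE7B*, which gave 0.0610 and 0.0792 in mock and 0.0318 and 0.0278 in knockdown (limma adjusted p = 0.105). Both knockdown values were not well above background (S/N 1.96 and 2.91). Set against the signal that would have reached an S/N of 3 there, *PDE7B* was at least 1.86-fold lower, short of the cutoff. This bound likewise holds on the main scale only and takes the mock signals as exact.

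Of 14 ligands and partners of the receptors 9 were above background, 6 of them with a lower mean (median log2 change -0.29), and 2 passed 2-fold, both lower, against 0.909% of all features. They were 2 chains of 1 protein, collagen IV, a ligand of *GPR126*. The list was picked with earlier results of these data known, so its share cannot be read as an enrichment. *COL4A1* gave 0.823 and 0.888 in mock and 0.315 and 0.243 in knockdown (ratio 0.327, log2 change -1.63, SE 0.18, limma adjusted p = 0.0860). *COL4A2* gave 13.3 and 15.2 in mock and 7.78 and 6.45 in knockdown (ratio 0.499, log2 change -1.01, SE 0.16, limma adjusted p = 0.112).

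Further partners were looked at after their values were seen, because they belong to receptors described above. *RECK*, the partner of *GPR124*, had a ratio of 0.525 (log2 change -0.93, SE 0.12, limma adjusted p = 0.101), and *TGM2*, a ligand of *GPR56*, one of 0.612 (limma adjusted p = 0.257). *PSAP*, the precursor proposed as a ligand of *GPR37*, had a ratio of 0.820 and *PARK2*, the parkin gene, one of 1.08. *WNT7A* and *WNT7B*, whose proteins signal through *GPR124* and *RECK*, had ratios of 1.27 and 1.04 with overlapping groups. *COL3A1*, which encodes the collagen III bound by *GPR56*, and *RARRES2*, which encodes the chemerin bound by *GPR1*, were not above background.

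**Figure D4:**
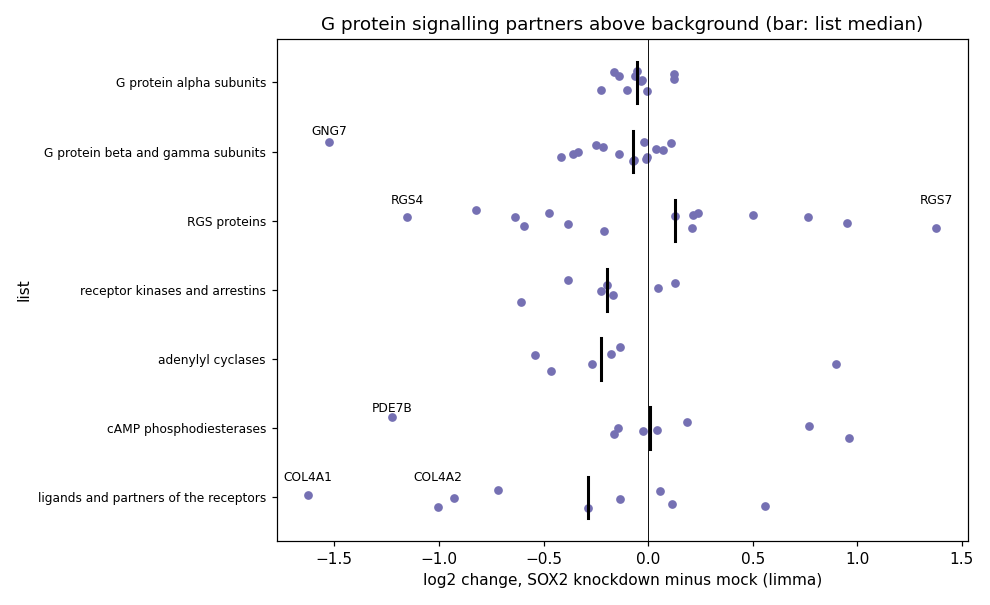
The log2 change from mock to SOX2 knockdown of each G protein signalling partner above background (points), by list, with the list median as a black bar and vertical jitter for legibility. Genes past 2-fold or an adjusted p of 0.1 are named, GNG7, RGS4, PDE7B, COL4A1 and COL4A2 on the left and RGS7 on the right.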

How the data were processed

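Total RNA of LN229 cells was hybridised to 1-colour chemiluminescent oligonucleotide arrays (Applied Biosystems Human Genome Survey), 2 for mock and 2 for *SOX2* knockdown. Each array's group comes from its source name, and its replicate number from its title. The members and the lists of partners were chosen with earlier results of these data known.

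The deposited scanner files hold a normalized signal as an intensity on a linear scale, its S/N as a score, and flags. Per the file headers S/N is a column of its own, and it was checked to be the assay-normalized signal over its error within 2% for 100% of unflagged values. The authors' processed table holds a linear ratio per probe and array and served as an alternative. The study's methods describe averaging by Celera gene ID, scaling to the 75th percentile, a filter at S/N over 3 in one arm and a 2-fold cutoff. No genome build of the files is given in the sources used here.

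Here 210 flagged probes (flag of 5000 or more) were left out, signal and S/N were averaged by gene ID (27739 features), each array was divided by its 75th percentile, values were floored at 0.01 and log2 was taken, which keeps 18378 features at S/N over 3 on both arrays of a group. Where a symbol had several gene IDs, one above background and with the brightest signal was used. Groups were compared by the ratio of linear means and by limma 3.58.1 in R 4.3.3 (lmFit, eBayes, no block, two-sided, Benjamini-Hochberg over all features kept), tested on simulated data. Tables and plots were made with pandas 2.3.3 and matplotlib 3.10.9. Depth has no meaning for these arrays, whose number limits the precision. Same-numbered arrays did not deviate together (correlation of deviations across features -0.50), so the numbers were not taken as pairs.

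GPR genes above background are named, except 3, and 4 of those not above background are likewise not reported here. Values on all 4 arrays are given for the 3 genes the study names, genes past 1.5-fold, the 5 brightest, genes with replicates over 2-fold apart and genes whose probes differ in direction, and for other genes chosen after their values were seen (*GPR37L1*, *GPR56* and *GPR126*). Partners are named past 2-fold or an adjusted p of 0.1, and others (*GNB5*, *RECK*, *TGM2*, *PSAP*, *PARK2*, *RARRES2*, *WNT7A*, *WNT7B*, *COL3A1*) were chosen after their values were seen. Signals of different probes are not comparable as expression levels. Symbols were matched to RefSeq's gene table (GRCh38.p14). Alternatives were other scalings, the series table, normexp with offset 50, a floor of 0.05, other filters and cutoffs, single probes, blocks, a variance trend and leaving out each array. Probes with the GPR symbol alone and a crossed block were added after seeing the data.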

Additional observations from a re-analysis of the deposited data

How the results depend on the processing

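The count of 3 GPR genes past 2-fold was 5 with median scaling (*GPR20* and *GPR37* added), 1 with normexp (*GPR37*), 0 with a floor of 0.05 and 1 where all 4 arrays had to exceed an S/N of 3 (*GPR85*). In the series table it was again 3, with *GPR37* among them. At cutoffs of 1.5-fold and 3-fold it was 10 and 1. With quantile normalization the 2-fold count was 2 (*GPR1* and *GPR85*). The share of all features past 2-fold under these other settings is not given here. These counts can therefore not be read as a result about GPR genes. No 2-fold count is given with an array left out, since a group then holds 1 array. A group left with 1 array was assumed to vary like the other. Of 63 genes above background the stricter S/N filter left 51, *GPR157* through its other gene ID, no S/N filter counts all 105, and leaving out 1 array gave 64 to 68. No GPR gene passed an adjusted p of 0.05, except 7 with median scaling and 6 in the series table. In both of these limma gave every feature the same spread (SD 0.283 and 0.281) and called 669 and 639 features, while the main scaling called 0. The replicate number as a block gave 0 calls, and so did the crossed pairing. Without one array 0 GPR genes passed (lowest 0, highest 0). At an adjusted p of 0.1 the count of 1 (*GPR1*) was 8 with median scaling, 7 in the series table, 2 with a variance trend, 2 with S/N over 3 on all 4 arrays and 7 with the crossed pairing, where 4.89%, 4.78%, 5.01%, 2.97% and 9.85% of all features passed. It was 1 with quantile normalization and with single probes, and 0 with normexp, a floor of 0.05, no S/N filter or the replicate block. The single-probe count took 1 probe per gene, for *GPR107* the brightest. A dimmer *GPR107* probe also passed there (log2 change 0.94, limma adjusted p = 0.0987).

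Of 314 comparisons of 20 named genes with an alternative, 15 turned the direction, none of them for *GPR1*, *GPR37*, *GPR74*, *GPR20*, *GPR85*, *GPR157* or *GPR172B*. With normexp the log2 change was -0.14 for *GPR176* and -0.53 for *GPR30*. With a floor of 0.05 *GPR30* gave -0.12. With single probes the brightest *GPR107* probe gave -0.063 and the brightest *GPR110* probe -0.11, while another *GPR107* probe gave 0.94. Leaving out each array in turn gave ranges that crossed 0 for *GPR103* (-1.07 to 0.010), *GPR8* (-0.45 to 0.37), *GPR30* (-0.33 to 1.05), *GPR160* (-0.92 to 0.11), *GPR142* (-0.36 to 0.75), *GPR97* (-0.95 to 0.15) and *GPR110* (-0.34 to 0.51). Why these changed was not tested, beyond the common spread. Where a signal is dim the floor and the background correction set the size of a change, which limits *GPR1*, *GPR20*, *GPR74* and *GPR176*.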
